A study of Bos taurus with 8 samples.

Results

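Single cells of bovine embryos collected on day 6 and on day 7 after fertilization were compared inside 1 sequencing library, the library of wildtype replicate 4. The class Morula held 13 cells of day 6 and the class EB, taken here as early blastocyst, held 35 cells of day 7. These 48 cells were all cells of that library among the 286 cells with values, and were chosen by library code and by the class in the authors' cell table, with no measured value used. Class and age coincide, so stage and day of collection cannot be told apart. All cells of both classes were wildtype, with no treatment named, and the library is a pool of cells that were lysed and barcoded singly. The labels do not say which embryo a cell came from or how the embryos were produced.

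The morula is a compacted ball of blastomeres, and the blastocyst forms when an outer epithelium, the trophectoderm, pumps fluid into a cavity around the inner cell mass. The inner cell mass later separates into epiblast and hypoblast. In cattle the embryonic genome is activated some divisions before compaction, and transcripts of that first wave, as well as stored maternal RNA, are lost while lineage genes become unequal between cells.

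Each class is 1 set of cells in 1 library, and cells are not replicates, so no p-value or standard error is given within the library. Values are class means over cells of reads per 1000000 reads of the cell (CPM), and a log2 ratio is that of the EB mean plus 10 CPM to the Morula mean plus 10 CPM. A gene counts as past the fold at a log2 ratio of 1 or more in size, a 2-fold difference, among genes whose mean reached 10 CPM in at least 1 class. The EB cells held 5706 to 289534 reads (median 87902) and the Morula cells 25391 to 426098 (median 216390), so the Morula cells were the deeper ones. A single read was worth 11.4 CPM in an EB cell of median depth and 4.62 CPM in a Morula cell of median depth, but 175 CPM in the shallowest EB cell. When each cell was thinned to 25000 reads, which left out 4 EB cells, the median number of detected genes was 5211 in 31 EB cells and 5243 in 13 Morula cells, against 7565 and 8946 without thinning.

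Replicate 6 was the other library with cells of both classes, 2 EB and 45 Morula cells, and it stood apart. Of its Morula cells, 15 held more summed RNA of a list of oocyte and maternal genes than any cell of replicate 4, whose highest sum was 781 CPM, and the highest sum in replicate 6 was 20686 CPM. These 15 cells were shallow, with a median of 19358 reads against 231698 in the other 30. BMP15, a growth factor of the oocyte, was detected in 12 Morula cells of replicate 6 and in 0 of the 48 cells of replicate 4, and GDF9 in 12 and in 1. BTG4, which serves the removal of maternal RNA, averaged 1154 CPM in the Morula cells of replicate 6 and 0.708 CPM in those of replicate 4. Counts and medians over replicate 6 are therefore given with and without those 15 cells, a choice made after the values were seen, and means of single genes there are over all 45 Morula cells unless said otherwise. The last 2 EB cells were in replicate 1, with 29295 and 37742 reads.

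Markers of the preimplantation embryo were detected in both classes of replicate 4. The keratins KRT8 and KRT18 were detected in every EB and every Morula cell, and POU5F1, a pluripotency regulator, in 34 of 35 EB and 12 of 13 Morula cells. SOX17, a hypoblast regulator, was at 0 in all 48 cells, which allows a share of cells with a read of up to 6.25%. GATA4, another hypoblast regulator, averaged 0.813 CPM in EB and 5.42 CPM in Morula, and PRDM14 and TDGF1, epiblast genes, averaged under 5 CPM in both. The summed oocyte list ran from 60.1 to 781 CPM in EB cells (median 353) and from 115 to 614 CPM in Morula cells (median 284), with 5 of its 31 listed genes at 0 in all 48 cells.

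Between the classes of replicate 4, 455 of 8747 genes were at least 2-fold higher in EB (5.2%) and 280 were at least 2-fold lower (3.2%), together 8.4%. As a yardstick for 2 sets of cells of the same class in different libraries, 14.4% of 9339 genes differed at least 2-fold between the Morula cells of replicates 4 and 6, 1.93% higher and 12.5% lower in replicate 4. Without the 15 cells rich in oocyte RNA it was 7.55% of 8897 genes, 1.11% higher and 6.44% lower. The share that differed between the classes was thus of the size seen between libraries of 1 class. The split of higher against lower genes depended on the scale. Centred on the median gene, whose log2 ratio was 0.08, it was 334 against 385, and when log2 values were averaged over the cells of a class it was 205 against 399.

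**Figure D1:**
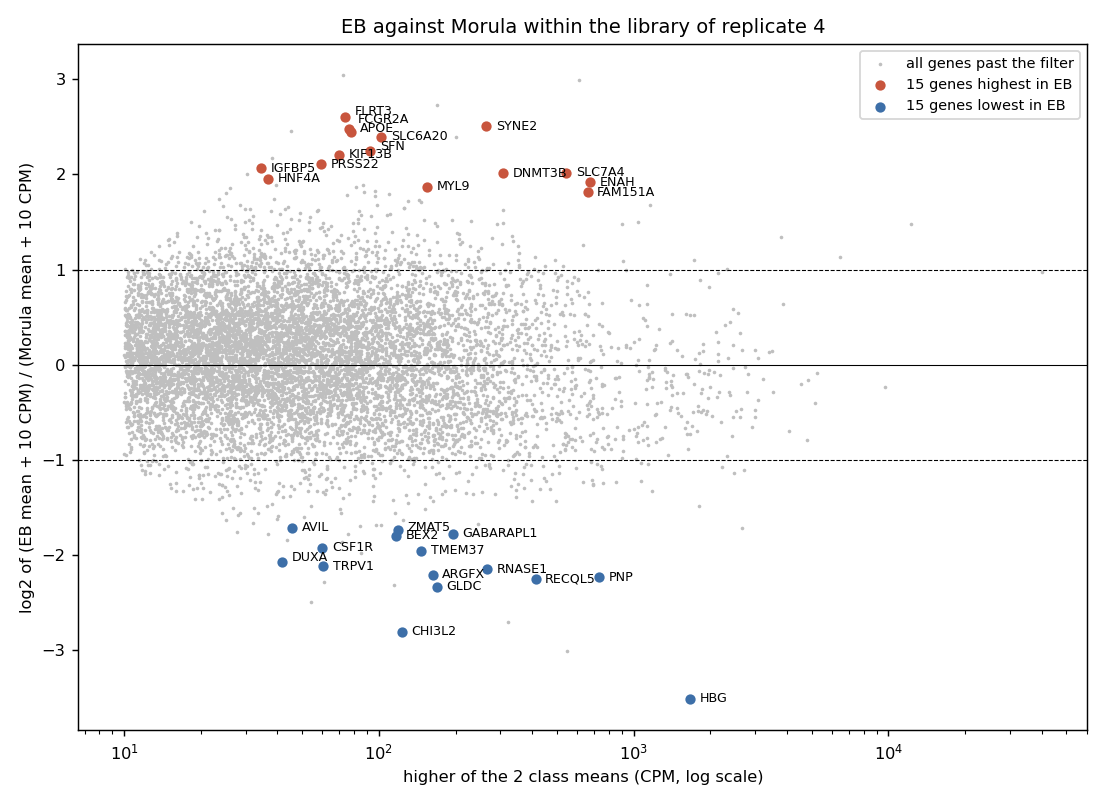
Log2 ratio of EB to Morula (each mean plus 10 CPM) against the higher of the 2 class means (CPM, log scale) for the 8747 genes past the filter in replicate 4; each point is a gene, and the 15 genes with the highest and the 15 with the lowest ratio under the naming rule are coloured. HBG stands lowest at -3.52 and FLRT3 highest of the coloured genes at 2.60; dashed lines mark the 2-fold limit.

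The 15 lowest and 15 highest genes named below were taken among genes with a symbol. Under the same conditions 12 genes without a symbol ranked among the lowest and 6 among the highest. The transcripts lowest in EB included homeobox genes of embryonic genome activation. DUXA, a double homeobox factor of the first zygotic wave, was at 0 in the median EB cell and reached 23.4 CPM at most, while Morula cells ran from 0 to 189 CPM with a median of 30.8. It was detected in 5 of 35 EB cells (14.3%, exact 95% binomial interval 4.81 to 30.3, counting error only) and in 11 of 13 Morula cells (84.6%, 54.6 to 98.1), and after thinning to 25000 reads in 2 of 31 and 7 of 13. The EB cells lay within the lower part of the Morula range, and the log2 ratio was -2.08.

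ARGFX, a homeobox factor of the same wave, gave 0, 11.8 and 277 CPM as the lowest, median and highest EB cell and 17.2, 167 and 378 CPM in Morula. Of the 35 EB cells, 19 lay below the lowest Morula cell, and the log2 ratio was -2.21. KLF17, a Krüppel-like factor of early embryos, ran from 0 to 195 CPM in EB (median 9.42) and from 7.71 to 235 CPM in Morula (median 36.8), and 17 EB cells lay below every Morula cell.

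Of the genome activation list, 11 of the 13 members in the table passed the filter. Of these, 3 were past 2-fold lower (ARGFX, DUXA and KLF17) and 1 past 2-fold higher, the heat shock gene HSPA1A. Over all genes 3.2% were past 2-fold lower and 5.2% higher. The median log2 ratio of the list was -0.56, against 0.08 for all genes. In the cells of shared depth, 31 EB and 12 Morula cells, it was 3 lower and 0 higher of 10. DPPA3, a maternal factor that protects the genome from demethylation, had means of 139 CPM in EB and 280 CPM in Morula and missed the limit. In replicate 6, 4 of the 11 genes of the list were higher in EB and 7 lower. Without the cells rich in oocyte RNA it was 2 and 9. Of all genes 44.9% were higher and 55.0% lower there, and 43.4% and 56.5% without those cells.

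HBG, named in the table as a gamma globin, had the lowest ratio of all, -3.52. Its Morula cells ran from 45.6 to 5492 CPM around a median of 680, and its EB cells from 11.7 to 676 CPM around a median of 92.3. The highest EB value was 6 reads in a cell of 8878 reads, and in EB cells as deep as the Morula cells the highest was 259 CPM. It was detected in all 48 cells, and 8 EB cells lay below the lowest Morula cell. In the day 8 classes of the other libraries its mean was 0.576 ± 0.651 CPM in MB ICM and 0.635 ± 0.784 CPM in MB TE (SD, n = 3 libraries each).

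PNP, an enzyme of purine salvage, separated the classes most cleanly among the genes lowest in EB. Its Morula cells ran from 300 to 1718 CPM (median 513) and its EB cells from 0 to 526 CPM, 3 reads in the shallowest cell (median 122), and 33 of 35 EB cells lay below the lowest Morula cell. GLDC, the glycine-cleaving enzyme of mitochondrial one-carbon metabolism, gave medians of 13.2 CPM in EB and 131 CPM in Morula, with 13 EB cells below every Morula cell. TMEM37, a transmembrane protein, gave medians of 15.1 and 139 CPM, with 21 EB cells below.

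For some genes of the lowest 15 a few Morula cells carried the mean. CHI3L2, a chitinase-like protein, had a Morula mean of 123 CPM but a median of 23.0, with 1 cell at 906 CPM. RECQL5, a DNA helicase, had means of 78.5 CPM in EB and 413 CPM in Morula, yet its medians were 29.8 and 26.6. GABARAPL1, an autophagy protein, gave medians of 29.8 CPM in EB and 128 CPM in Morula, with 16 EB cells below every Morula cell. ZMAT5 gave medians of 18.6 and 106 CPM, with 10 EB cells below, and TRPV1, a cation channel, 0 and 54.7 CPM. RNASE1, a secreted ribonuclease, CSF1R, a cytokine receptor, BEX2 and AVIL, an actin-binding protein, made up the rest, with log2 ratios from -2.15 for RNASE1 to -1.72 for AVIL.

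TMSB4X, thymosin beta 4, which binds actin monomers, was named through the list of cytoskeletal genes. It ran from 885 to 4802 CPM in Morula cells (median 2206) and from 137 to 2078 CPM in EB cells (median 717). In replicate 4, 20 EB cells lay below every Morula cell. In replicate 6 its means were 2425 CPM in EB and 4417 CPM in Morula. The log2 ratio there was -0.86, and -0.39 without the cells rich in oocyte RNA.

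RAB11A, a GTPase of recycling endosomes, gave medians of 438 CPM in EB and 1118 CPM in Morula, with 28 EB cells below the lowest Morula cell. GMNN, geminin, an inhibitor of replication licensing, gave medians of 124 and 254 CPM, with 30 EB cells below, but in replicate 6 its mean was higher in EB (290 against 217 CPM). ATP6V1H, a subunit of the proton pump of lysosomes, gave medians of 60.1 and 164 CPM, also with 30 below. For these 3 genes most EB cells of replicate 4 lay outside that library's Morula range. In replicate 6 the log2 ratios of RAB11A and ATP6V1H were -0.94 and -0.26, and -1.12 and -0.55 without the cells rich in oocyte RNA.

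**Figure D2:**
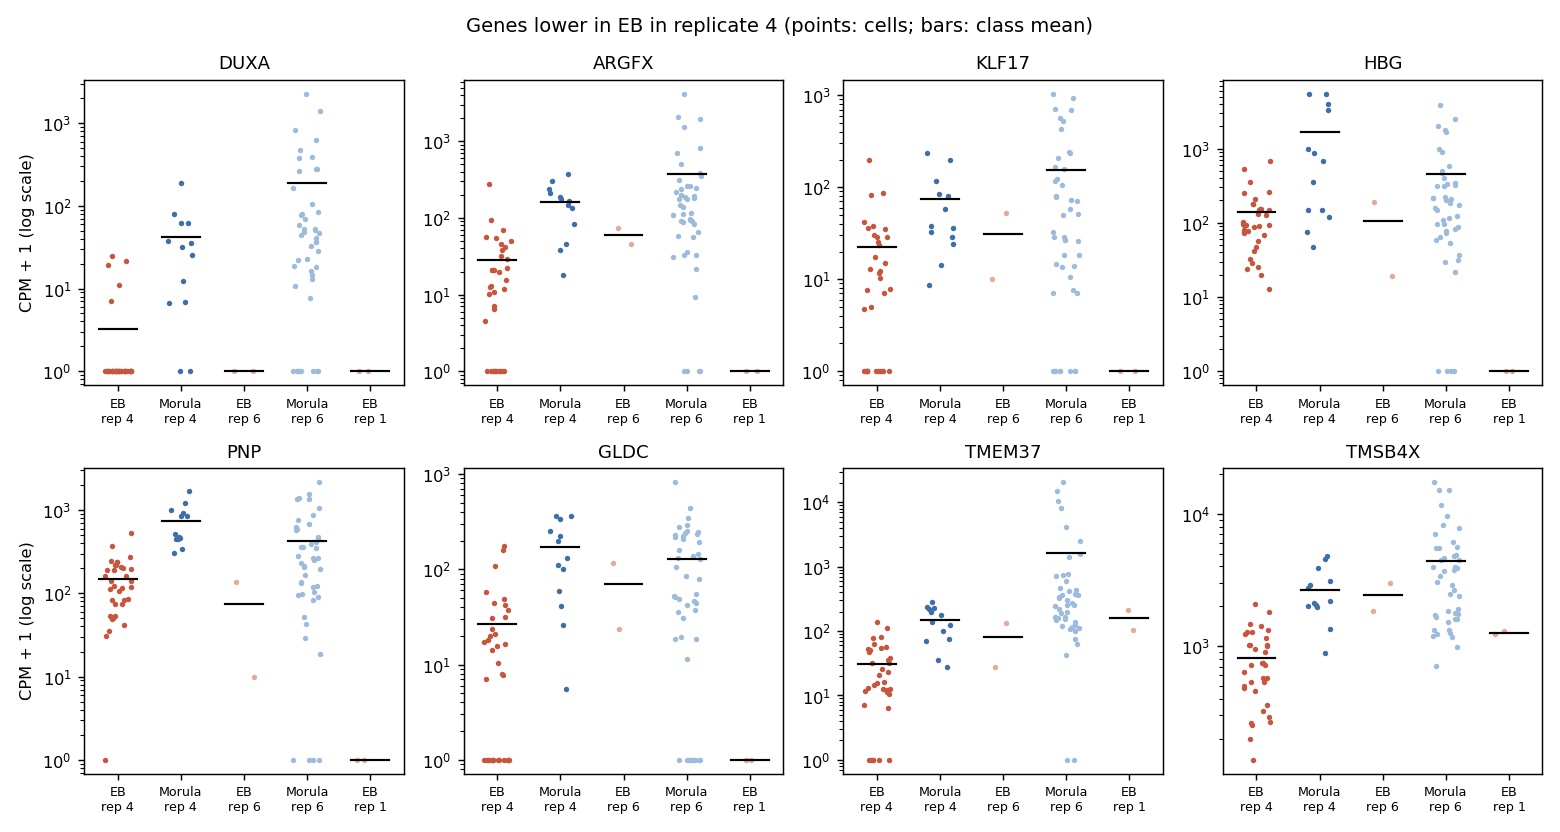
CPM plus 1 (log scale) of 8 genes lower in EB in replicate 4, 1 point per cell and a bar at each class mean, for EB and Morula cells of replicate 4 (35 and 13 cells), of replicate 6 (2 and 45) and the EB cells of replicate 1 (2). DUXA is at 0 in all 4 EB cells outside replicate 4, and PNP puts 33 of 35 EB cells of replicate 4 below its lowest Morula cell.

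The 2 EB cells of replicate 6 played no part in choosing the genes. In them, 14 of the 15 named genes lowest in EB were again lower than in that library's Morula cells, 11 of them past 2-fold. Between these 2 cells and the 45 Morula cells 36.5% of 9475 genes differed at least 2-fold, 10.8% higher and 25.7% lower, and without the cells rich in oocyte RNA 31.5% of 9100, 9.8% higher and 21.7% lower. Over all genes past the filter in replicate 4, 55.0% were lower there, and of all 280 genes past 2-fold lower 204 were lower (72.9%). The exception was BEX2. Without the 15 Morula cells rich in oocyte RNA it was 13 of 15, with AVIL as the second exception, again 11 past 2-fold, and 75.4% of the 280 genes against 56.5% of all. DUXA was at 0 in both EB cells against a mean of 187 CPM in the 45 Morula cells, ARGFX stood at 44.8 and 74.0 against 370, and PNP at 8.95 and 137 against 422. The Morula means of replicate 6 were drawn up by a few cells: for TMEM37 the median was 257 CPM and the highest cell 20547, and for ARGFX 138 and 4204. In the 2 EB cells of replicate 1, DUXA, ARGFX, KLF17, HBG, PNP and GLDC were all at 0, at 29295 and 37742 reads.

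The transcripts highest in EB came from several functions. DNMT3B, a de novo DNA methyltransferase, ran from 34.3 to 761 CPM in EB cells (median 250) and from 0 to 224 CPM in Morula cells (median 46.2). It was detected in all 35 EB cells, 21 of which lay above the highest Morula cell, and its log2 ratio was 2.01. After thinning it was detected in 31 of 31 EB and 8 of 13 Morula cells. JARID2, a subunit of Polycomb repressive complex PRC2, and TDG, a glycosylase of active demethylation, were past 2-fold higher as well, with means of 336 against 131 CPM and 53.3 against 12.5 CPM. Of 34 epigenetic regulators these 3 were past 2-fold higher, 8.82% against 5.2% of all genes, and 0 were past 2-fold lower.

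FLRT3, a transmembrane protein of cell adhesion and FGF signalling, had the highest ratio of the named genes, 2.60. Its Morula cells ran from 0 to 11.4 CPM (median 4.60), while EB cells ran from 0 to 442 CPM with a median of 23.7, and 22 of 35 lay above every Morula cell. After thinning it was detected in 17 of 31 EB and 0 of 13 Morula cells. On day 8 its mean was 141 ± 37.1 CPM in MB ICM and 3.71 ± 2.72 CPM in MB TE (SD, n = 3 libraries each).

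HNF4A, a nuclear receptor of endoderm, was at 0 in 10 of 13 Morula cells, with a highest value of 13.1 CPM, and had a median of 11.8 CPM in EB. The highest EB value, 351 CPM, was 2 reads in the cell of 5706 reads, and 204 CPM was the highest among cells as deep as the Morula cells. APOE, a lipid carrier, ran to 374 CPM in EB (median 27.7) and to 15.2 CPM in Morula (median 5.73), with 22 EB cells above the Morula range. APOA1, another lipid carrier, gave medians of 67.1 and 13.8 CPM. Each of the 3 was spread widely among EB cells, with the lowest cell at 0.

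Of the hypoblast list, 16 of 24 members in the table passed the filter, and 6 were past 2-fold higher and 1 past 2-fold lower, with a median log2 ratio of 0.76 against 0.08 for all genes and 5.2% of all genes past 2-fold higher. The higher ones were APOE, HNF4A, APOA1, COL4A1, PDGFRA and FN1, the last 2 only just past the limit, and the lower one was BMP2. COL4A1 is a basement membrane collagen, PDGFRA a growth factor receptor and FN1 a matrix protein. In cells of shared depth it was 7 higher and 0 lower of 16. In replicate 6, 5 of the 16 were higher in EB and 11 lower, with or without the cells rich in oocyte RNA. Shares over all genes were 44.9% higher and 55.0% lower with those cells, and 43.4% and 56.5% without them. GATA6, which begins hypoblast formation, gave medians of 529 CPM in EB and 304 CPM in Morula and missed the limit with a log2 ratio of 0.62.

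SFN, the 14-3-3 sigma protein of epithelia, ran to 597 CPM in EB (median 37.1) and to 40.9 CPM in Morula (median 11.7), and KRT19, a keratin, gave medians of 49.6 and 14.1 CPM. GATA3, a trophectoderm regulator, gave medians of 306 and 199 CPM and a log2 ratio of 1.13, which dropped to 0.88 with the mean of log2 values and 0.94 after thinning. GATA2 and ARID3A, other factors of the trophectoderm list, were past 2-fold higher at means of 25.3 and 35.9 CPM. Of the 32 trophectoderm genes that passed, these 5 were past 2-fold higher and 1 lower, ANXA2, an annexin. That was 15.6% higher and 3.1% lower, against 5.2% and 3.2% of all genes. The median log2 ratio of the list was 0.07, near that of all genes. In replicate 6, 11 of the 32 were higher in EB and 21 lower (9 and 23 without the cells rich in oocyte RNA). Of all genes 44.9% were higher there and 55.0% lower (43.4% and 56.5% without those cells). SFN, KRT19 and CDX2 were lower in replicate 6 with log2 ratios of -1.92, -0.92 and -2.14. CDX2, the best-known trophectoderm regulator, was detected in 16 of 35 EB and 9 of 13 Morula cells, with means of 32.0 and 12.6 CPM and a log2 ratio of 0.89.

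FCGR2A, an immunoglobulin receptor gene, ran to 273 CPM in EB (median 59.2) and to 11.7 CPM in Morula (median 5.73), with 29 of 35 EB cells above the Morula range. MYL9, a regulatory light chain of myosin, gave medians of 132 and 36.9 CPM, with 27 EB cells above. ENAH, a regulator of actin filament growth, gave medians of 507 and 143 CPM, with 23 above. These 3 genes separated most EB cells from the Morula cells of the same library.

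FAM151A separated the classes as fully as PNP did in the other direction, with 33 of 35 EB cells above the highest Morula cell. EB cells ran from 266 to 1506 CPM (median 601) and Morula cells from 39.4 to 327 CPM (median 176). The difference was not seen in the other libraries. The 2 EB cells of replicate 6 stood at 26.9 and 11.4 CPM, below the mean of 57.9 CPM in that library's Morula cells. The Morula mean of replicate 4 was 181 CPM, so both classes averaged more in replicate 4 than in replicate 6. Both EB cells of replicate 1 were at 0. On day 8 its mean was 17.6 ± 6.50 CPM in MB ICM and 13.3 ± 18.8 CPM in MB TE (SD, n = 3 libraries each).

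The rest of the 15 genes highest in EB were SYNE2, a nuclear envelope protein, SLC6A20 and SLC7A4, of the solute carrier families, KIF13B, a kinesin, PRSS22, a serine protease, and IGFBP5, which binds insulin-like growth factors. SYNE2 had an EB mean of 264 CPM with a median of 74.1 and a highest cell of 2615 CPM. SLC7A4 gave medians of 451 CPM in EB and 101 CPM in Morula, with 26 EB cells above the Morula range. IGFBP5 was detected in 1 of 13 Morula cells and 21 of 35 EB cells, with an EB median of 7.11 CPM, under the worth of 1 read in a cell of median depth.

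**Figure D3:**
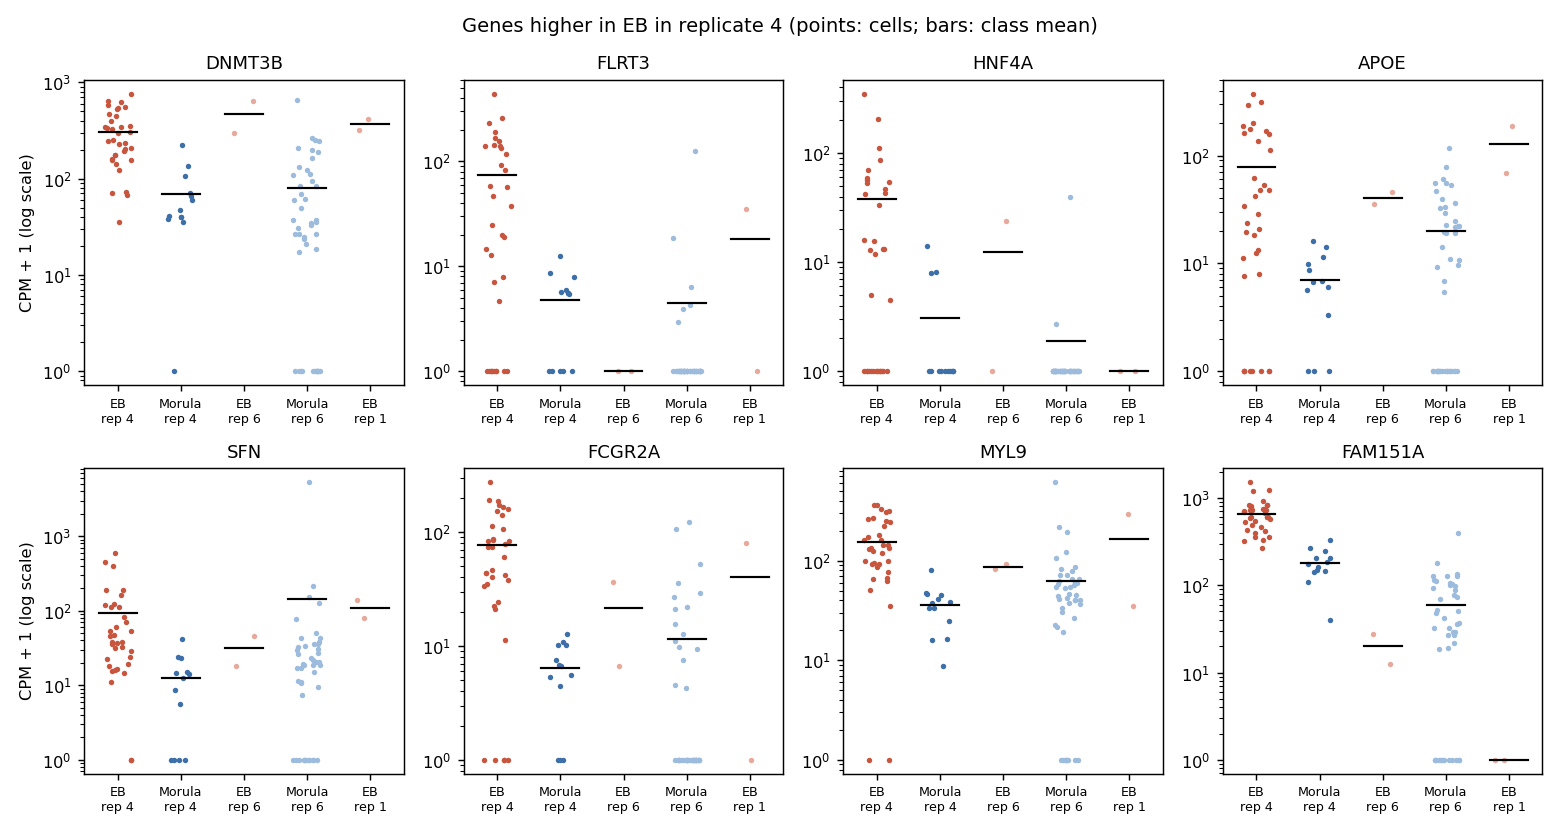
CPM plus 1 (log scale) of 8 genes higher in EB in replicate 4, 1 point per cell and a bar at each class mean, for the EB and Morula cells of replicates 4 and 6 and the EB cells of replicate 1. DNMT3B is also high in the EB cells of replicates 6 and 1. FAM151A averages 660 CPM in the EB and 181 CPM in the Morula cells of replicate 4, against 57.9 CPM in the Morula cells of replicate 6.

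In replicate 6, 7 of these 15 genes were higher in the 2 EB cells than in the Morula cells, and 8 were lower. Past 2-fold, 2 were higher, DNMT3B and ENAH, and 4 were lower, SFN, SLC6A20, SLC7A4 and FAM151A. Of all genes 44.9% were higher there, and of the 455 genes past 2-fold higher in replicate 4 it was 217 (47.7%). Of the 455, 76 were past 2-fold higher there (16.7%, against 9.35% of all genes) and 94 past 2-fold lower (20.7%, against 19.1%). Without the 15 Morula cells rich in oocyte RNA the number was again 7 of 15, with DNMT3B alone past 2-fold higher and 3 past 2-fold lower. Of the 455 genes 222 were then higher (48.8%, against 43.4% of all genes). DNMT3B stood at 295 and 632 CPM in the EB cells of replicate 6 against a Morula mean of 77.9, and at 410 and 318 CPM in those of replicate 1. FLRT3, PRSS22, IGFBP5 and SLC6A20 were at 0 in both EB cells of replicate 6. A set of 2 cells does not show how often these transcripts are absent.

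**Figure D4:**
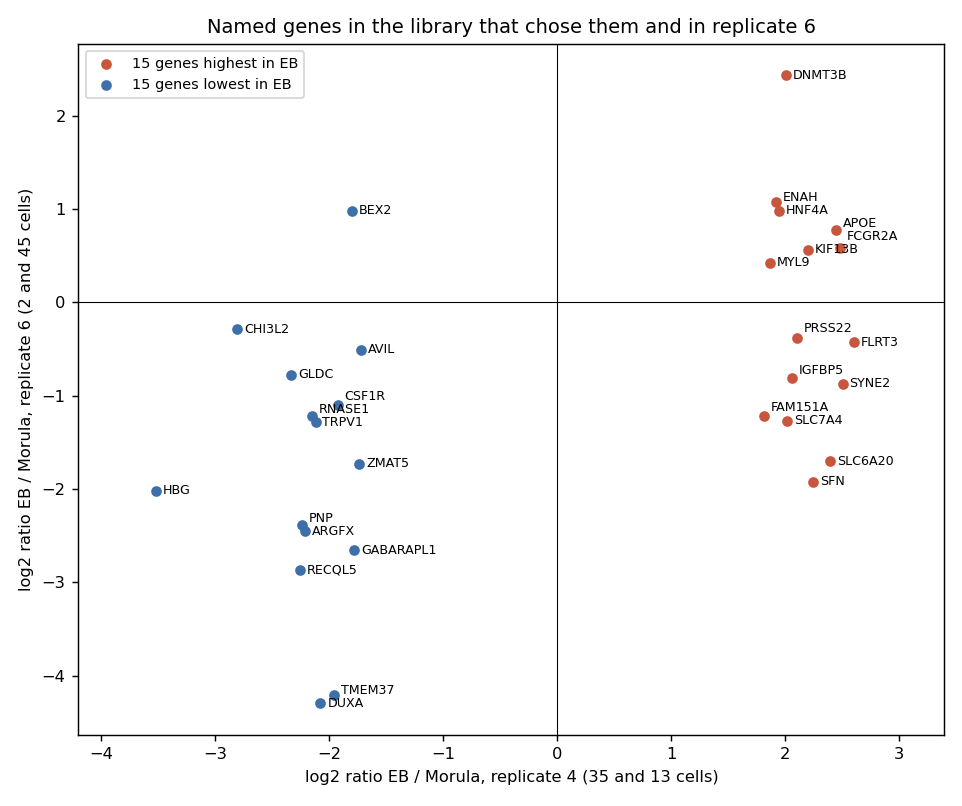
Log2 ratio of EB to Morula in replicate 4 (x axis, 35 and 13 cells) against that in replicate 6 (y axis, 2 and 45 cells) for the 30 genes with the highest and lowest ratios in replicate 4; each point is a gene. Of the 15 genes lowest in EB 14 lie below 0 on the y axis, and of the 15 highest 7 lie above it.

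SOX2, POU5F1 and NANOG differed less than 2-fold between the classes of replicate 4. SOX2, a pluripotency factor, ran from 0 to 444 CPM in EB (median 160) and from 0 to 541 CPM in Morula (median 77.4), with means of 180 and 151. POU5F1 gave medians of 119 and 111 CPM. NANOG, which marks the epiblast, was detected in 9 of 35 EB and 3 of 13 Morula cells, with means of 7.42 and 9.99 CPM, both below the 10 CPM filter. On day 8 it averaged 154 ± 42.4 CPM in MB ICM (SD, n = 3 libraries).

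Of the epiblast and inner cell mass list, 20 of 30 members passed, 3 past 2-fold higher and 3 past 2-fold lower. That was 15% each way, against 5.2% higher and 3.2% lower over all genes. The higher ones were FLRT3, DNMT3B and IL6ST, the shared receptor subunit of the IL6 family, and the lower ones ARGFX, KLF17 and ESRRB, a nuclear receptor. IL6ST had means of 143 CPM in EB and 53.9 CPM in Morula, and 80.1 and 28.1 CPM in replicate 6. ESRRB had 66.8 and 152 CPM, and 54.1 and 112 CPM in replicate 6. The list thus held members on both sides of the limit, with a median log2 ratio of 0.53. That median was 0.14 in cells of shared depth, -0.11 in replicate 6 and 0.23 there without the cells rich in oocyte RNA.

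The transcription factors TFAP2C and TEAD4, which act upstream of trophectoderm genes, gave medians of 215 against 222 CPM and 102 against 134 CPM. YAP1, the co-activator that TEAD4 binds, gave medians of 119 and 46.7 CPM and a log2 ratio of 0.85. Of the Hippo pathway list 2 of 24 were past 2-fold higher, the scaffold AMOT and the kinase LATS1, and 1 lower, the YAP target CTGF, near the 5.2% and 3.2% of all genes. KRT18 had means of 1289 CPM in EB and 1356 CPM in Morula, and KRT8 2452 and 1636 CPM, with wide and overlapping ranges. The 2 EB cells of replicate 1 stood apart with a KRT8 mean of 11446 CPM.

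Genes of the epithelial seal were mostly on the higher side. Of 37 junction and polarity genes that passed, 30 had a ratio above 0, with a median log2 ratio of 0.40, where 55.2% of all genes had a ratio above 0. Past 2-fold, 5 were higher and 1 lower (5.2% and 3.2% of all genes). The 5 were DSP, a desmosome plaque protein, PRKCZ, a polarity kinase, and CLDN4, TJP1 and MARVELD2, which build tight junctions. CGNL1, a junction-associated protein, was the lower one, with means of 6.17 CPM in EB and 39.9 CPM in Morula. In cells of shared depth it was 3 higher and 2 lower. In replicate 6, 8 of the 37 were higher in EB and 29 lower, and without the cells rich in oocyte RNA 10 and 27. Shares over all genes there were 44.9% higher and 55.0% lower, and 43.4% and 56.5% without those cells.

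Several signalling genes were higher in EB. Of 12 genes of Nodal, BMP and WNT signalling, 4 were past 2-fold higher, the activin receptor ACVR2B, the WNT feedback gene AXIN2, the WNT receptor FZD5 and the WNT effector TCF7L1, and the ligand BMP2 was lower (5.2% and 3.2% of all genes). Of 15 FGF and ERK genes 3 were past 2-fold higher, the receptor FGFR2, the feedback inhibitor SPRED2 and the immediate early gene FOS, and 0 lower. In replicate 6 the Nodal, BMP and WNT list had 5 higher and 7 lower and the FGF and ERK list 6 and 9. Without the cells rich in oocyte RNA it was 4 and 8, and 5 and 10. Of all genes 44.9% were higher and 55.0% lower there, and 43.4% and 56.5% without those cells. FOS gave medians of 59.4 CPM in EB and 23.1 CPM in Morula, with 16 EB cells above the Morula range, and SPRED2 40.9 and 13.9 CPM, with 18 above. SPRED2 was also higher in EB in replicate 6 (means of 64.3 and 18.7 CPM), and FOS was not (39.5 and 104).

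Sterol and fatty acid synthesis was higher in EB across most of its members. Of 26 that passed, 23 had a ratio above 0 (55.2% of all genes) and 5 were past 2-fold higher (5.2% of all genes), with 0 past 2-fold lower, and the median log2 ratio was 0.56. The 5 were CYP51A1 and IDI1, enzymes of sterol synthesis, FASN and FADS2, which make and desaturate fatty acids, and SREBF2, the transcription factor of the sterol pathway. CYP51A1 gave medians of 91.0 CPM in EB and 10.4 CPM in Morula, with 1 Morula cell at 339 CPM, and SREBF2 82.1 and 32.7 CPM. In replicate 6 the direction was mostly the other, with 6 of 26 higher and 20 lower, with or without the cells rich in oocyte RNA. Shares over all genes there were 44.9% higher and 55.0% lower with those cells, and 43.4% and 56.5% without them.

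Proteasome subunits were lower in EB, with 27 of 30 below a ratio of 0, where 44.8% of all genes were below it, and a median log2 ratio of -0.52. PSMA1, PSMB1, PSMB2 and PSMC2 were past 2-fold lower (3.2% of all genes), and for each of them 21 to 24 of the 35 EB cells lay below the lowest Morula cell. PSMB1, a core subunit, ran from 86.3 to 470 CPM in EB and from 275 to 771 CPM in Morula. Of 40 oxidative phosphorylation genes 36 had a ratio below 0, with a median log2 ratio of -0.54 and none past 2-fold. Of 51 ribosomal protein genes 39 had a ratio below 0, with a median of -0.20.

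In replicate 6 none of these 3 lists was lower in EB to that extent. Over all 45 Morula cells their median log2 ratios there were 0.20 for the proteasome, 0.35 for oxidative phosphorylation and 0.39 for ribosomal proteins. Of their genes 22 of 30, 31 of 40 and 50 of 51 were higher in the EB cells, against 44.9% of all genes. Without the cells rich in oocyte RNA the medians were -0.02, 0.12 and 0.20, so the proteasome median turned to the other side of 0. Then 14, 24 and 39 genes were higher, against 43.4% of all genes. The part of depth, of the library and of the 2 EB cells in this contrast was not tested.

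The count of fibroblast markers past 2-fold changed when cells outside the shared depth range were left out. COL1A1, COL1A2 and VIM, a collagen pair and an intermediate filament, were past 2-fold higher in EB. They were 3 of the 4 listed genes that passed, where 5.2% of all genes were past 2-fold higher. The summed list ran from 15.6 to 3155 CPM in EB cells (median 128) and from 23.0 to 236 CPM in Morula cells (median 87.8). The highest sum was that of an EB cell below the depth range of the Morula cells, and within that range it was 667 CPM. Among the 31 EB and 12 Morula cells of shared depth, 0 of 3 passing fibroblast genes were past 2-fold, and COL1A1, COL1A2 and VIM had log2 ratios of 0.59, 0.28 and 0.86. FN1 and COL4A1, which fibroblasts also express, lie on the hypoblast list, whose count was 7 of 16 without those cells. In replicate 6 all 4 fibroblast genes were lower in EB, with a median log2 ratio of -2.82. Without the cells rich in oocyte RNA all 4 were lower again, with a median of -1.80. Of all genes 55.0% were lower there, and 56.5% without those cells. The part of fibroblast RNA in other results was not tested.

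Trophectoderm markers went together from cell to cell in EB. Over the 35 EB cells, all 36 pairs of the 9 trophectoderm markers that passed the filter had a positive Spearman correlation, from 0.32 to 0.82 with a median of 0.57. Over the 13 Morula cells 33 of 36 pairs were positive, with a median of 0.42. These are descriptions over cells of 1 library, which share its depth, its compositional scale and perhaps embryos, and the spread of rho over 13 cells is wide. Among hypoblast markers 17 of 21 pairs were positive in EB, and among epiblast markers 4 of 6. The share over pairs of other genes is not given. In EB, KRT8 with KRT18 gave 0.82, KRT18 with EZR, which links membrane and actin at the apical surface, 0.78, and CDX2 with GATA2 0.76.

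Several hypoblast markers ran against them in EB. Of 63 pairs of a trophectoderm with a hypoblast marker, 51 were negative over EB cells, with a median of -0.28. The lowest value there was -0.71 for EZR with FN1. Over Morula cells 38 of 63 were negative, with a median of -0.09 and a lowest value of -0.82 for EZR with PDGFRA. In EB, KRT18 with PDGFRA gave -0.68, and KRT8 with FN1 -0.65. FN1, PDGFRA and COL4A1 were negative in EB with all 9 trophectoderm markers, with medians of -0.60, -0.49 and -0.37. GATA6, HNF4A and RSPO3 had medians of -0.24, -0.18 and -0.05, and APOA1 was positive with 7 of 9, at most 0.36 with EZR. Over Morula cells FN1 and PDGFRA were also negative with all 9, with medians of -0.34 and -0.42, and COL4A1 with 3 of 9. PDGFRA with FN1 gave 0.71 in EB, the highest of the 21 pairs among hypoblast markers, whose median was 0.15. Pairs of trophectoderm with epiblast markers were negative in 33 of 36 cases over EB cells (median -0.22) and in 27 of 36 over Morula cells (median -0.25). The correlation of these markers with the number of reads per cell was 0.32 at most in EB, for GATA2, and reached 0.62 in Morula, for GATA6.

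**Figure D5:**
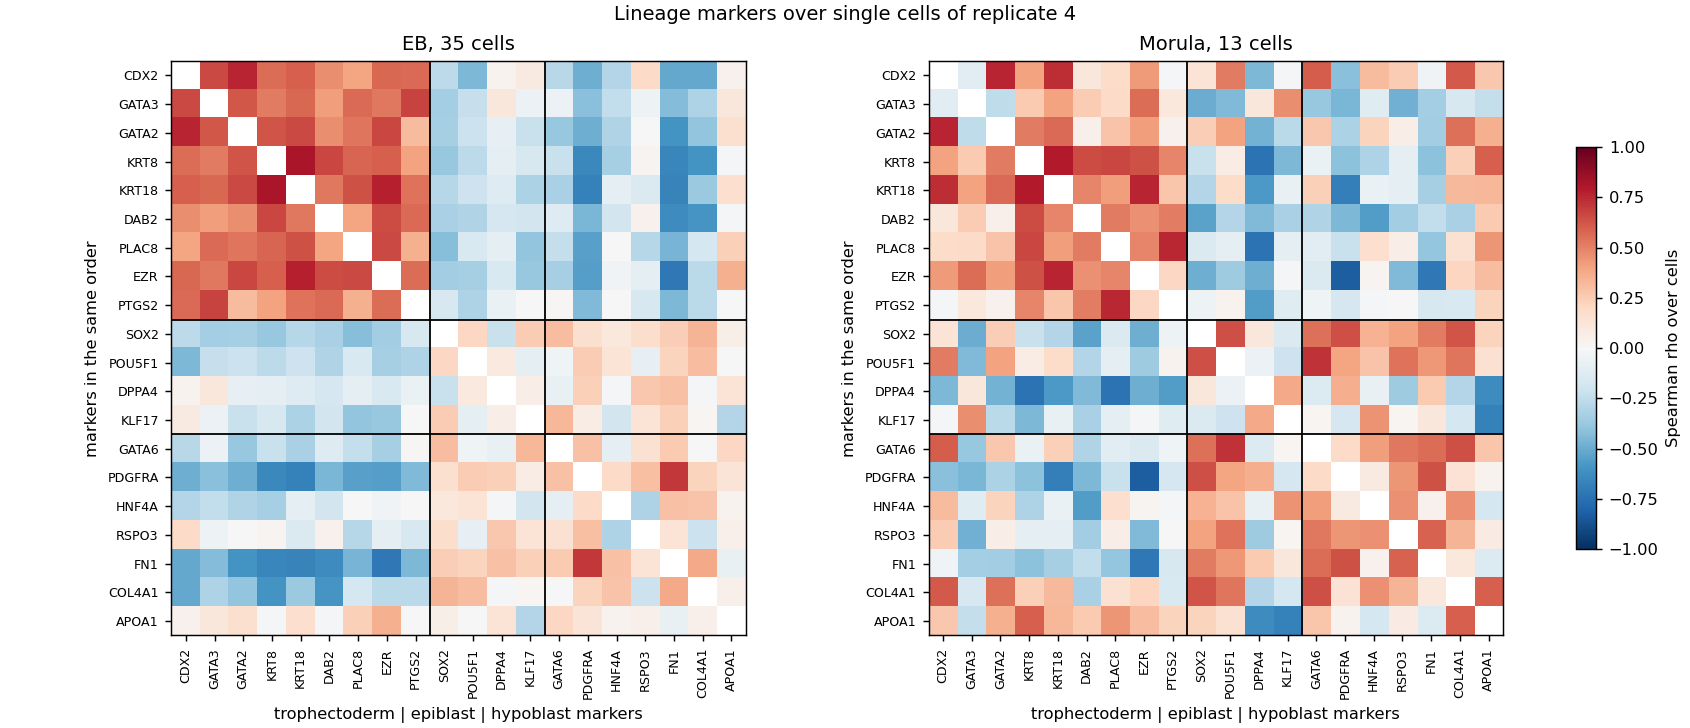
Spearman correlation over the 35 EB and the 13 Morula cells of replicate 4 for each pair of 9 trophectoderm, 4 epiblast and 7 hypoblast markers, in that order on both axes, with black lines between the lists; red is positive and blue negative. All 36 trophectoderm pairs are positive in EB, and 51 of the 63 trophectoderm and hypoblast pairs are negative.

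A test over libraries was possible only with the EB average of replicate 4 set against the Morula averages of replicates 4 and 6, in a limma fit over all classes and libraries. The lone EB average was assumed to vary like the other classes, and the test shares the cells of replicate 4 with the values above. Of 12540 genes, 5 were higher in EB at a Benjamini-Hochberg adjusted p under 0.05 (0.0399%) and 5 were lower (0.0399%), together 0.0797%, and 627 had an unadjusted p under 0.05. DUXA fell by 2.87 on the log2 scale (SE 0.489, limma adjusted p = 0.0209) and ARGFX fell by 2.67 (SE 0.514, adjusted p = 0.0454). HBG fell by 2.75 (SE 0.518, limma adjusted p = 0.0443), and SDS, serine dehydratase, fell by 2.27 (SE 0.419, adjusted p = 0.039). The uncharacterized LOC781710 fell by 1.99 (limma adjusted p = 0.0454), but in replicate 6 its EB mean of 87.0 CPM lay above the Morula mean of 32.6.

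HSP90AB1, a constitutive HSP90 chaperone, was the one called gene higher in EB with a symbol. It rose by 1.44 on the log2 scale (SE 0.246, limma adjusted p = 0.0209). EB cells of replicate 4 ran from 1379 to 8267 CPM (median 3399) and Morula cells from 223 to 2992 CPM (median 1295), and in replicate 6 the means were 3584 CPM in EB and 1271 CPM in Morula. The other 4 called genes, LOC112448447, LOC112449616, LOC112444793 and LOC104970940, were detected in 1 to 3 of the 35 EB cells and in 0 of the 13 Morula cells. Their means rested on single cells, such as 2454 CPM in 1 EB cell for LOC112448447. None of the 4 was among the genes tested when cells under 25000 reads were left out. SDS, 1 of the genes lower in EB, was detected in 7 of 13 Morula cells of replicate 4, with a mean of 25.0 CPM and a median of 3.80. In replicate 6 its Morula mean was 92.4 CPM, its median 14.3 CPM and its highest Morula cell 1504 CPM.

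The calls turned on the settings. DUXA was called under 8 of 14 alternatives, with limma adjusted p from 5.81e-05 to 0.486, HSP90AB1 under 7 (0.00846 to 0.208), HBG under 7, ARGFX under 6 and SDS under 5. Without the 15 Morula cells of replicate 6 rich in oocyte RNA 10 genes were higher and 5 lower, all 10 calls above among them. Leaving out a library that holds neither class, or only 2 EB cells that were not averaged, also moved the counts, to 3 higher and 1 lower without replicate 1, 2 and 1 without replicate 3 or 5, and 1 and 0 without replicate 2 (500 genes at an unadjusted limma p under 0.05). Without replicate 6 it was 4 and 5. SYNE2 (limma adjusted p = 0.0514) and FLRT3 (0.0725) were next to the limit, and PNP, DNMT3B and FAM151A did not pass (0.485, 0.87 and 0.409). The only called genes on the gene lists were DUXA and ARGFX, both of genome activation, and ARGFX stood on the epiblast list as well.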

How the data were processed

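The authors deposited a table of 18825 genes by 286 cells in natural log units of 1 plus the value per 10000 reads; with the log undone, each cell summed to 10000. Per the submitters' processing notes, Seurat, featureCounts, HISAT2 and Trim Galore were used on the build ARS-UCD1.2, without versions; settings and cell filters are not stated in those notes. All values were whole reads within a tolerance of 0.1, so depth was recovered. HBG, TMSB4X and HSP90AB1 belong to families with near-identical copies or pseudogenes, and how reads shared between copies were counted is not stated, so their values are uncertain. PCR reads were not shown to be distinct molecules, and no doublet caller was run. Classes and days are the authors'; how classes were assigned is not given. Each library held 48 barcodes, 46 of them found in every library, so barcodes alone do not identify cells. Names were matched to RefSeq symbols (17114, and 257 older ones; 1454 unmatched).

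Cells were given equal weight. Named genes had a symbol, 20 CPM in 1 class mean and detection in most cells of the higher class; the 15 highest and 15 lowest ratios, up to 4 per list and a fixed set of lineage genes were taken. The members and the 32 lists, 31 of which had genes in the table, were chosen with earlier results of these data known. Between libraries, limma 3.58.1 (R 4.3.3, statmod 1.5.0) was fitted to log2(mean CPM + 10) of library and class averages of at least 3 cells, with trend, robust moderation and the library as a random block; the consensus correlation was 0.18. The labels pair no embryos, so p-values measure only how these libraries spread, and that spread may be technical. Python 3.11.15, numpy 2.4.6 and pandas 2.3.3 were used. Libraries with BE3 injection were not analysed here, and sequences are not printed.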

Additional observations from a re-analysis of the deposited data

How the results depend on the processing

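Within replicate 4, the counts of genes at least 2-fold higher and lower in EB, 455 and 280, became 1102 and 674 with a pseudocount of 1 CPM, 55 and 60 with 50 CPM, 239 and 165 with a class mean of at least 50 CPM, and 806 and 519 in cells thinned to 25000 reads. The mean of log2 values gave 205 higher and 399 lower. Both counts stayed within 1.5 times under no filter, summed reads, no highest cell, centring and the shared depth range. All 15 highest and all 15 lowest genes kept their sign under the 10 alternatives, and 12 and 11 of them stayed past 2-fold under all 10; HNF4A, IGFBP5, PRSS22, AVIL, CSF1R, DUXA and TRPV1 did not.

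Over libraries, 5 genes higher and 5 lower became 3 and 1 without the replicate block, and 1 and 2 with the replicate block as a fixed effect of the library. They were 2 and 0 with a pseudocount of 1 CPM (531 genes at an unadjusted limma p under 0.05), 50 and 33 with no filter, 1 and 7 with the mean of log2 values, and 1 and 24 with averages of at least 2 cells. That last setting turned FAM151A to -0.89 and SYNE2 to -0.21. Leaving out 1 library at a time gave 1 to 4 higher and 0 to 5 lower (1 and 0 without replicate 2, 500 genes at an unadjusted limma p under 0.05). Of the alternatives chosen after seeing the data, cells of at least 25000 reads gave 4 and 9, and leaving out the Morula cells of replicate 6 rich in oocyte RNA gave 10 and 5. The cause of these moves was not tested.

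Leaving out replicate 4 removes the only EB average, a fit of EB and Morula alone with the library fixed has no residual degrees of freedom, and a comparison inside replicate 6 under the 3-cell minimum lacks EB cells, so these 3 were not run. Depth limits the shares of cells with a read, and 13 Morula cells limit any statement on their spread.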
